A study of Mus musculus with 19 samples.

Results

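Type I interferon-stimulated genes were followed through 19 kidney RNA-sequencing libraries from a mouse study of ischemia-reperfusion injury with and without oral Lactobacillus. The members were chosen by a fixed list of 38 gene symbols, and a gene was kept where at least 4 of the 19 libraries reached 1 FPKM (fragments scaled by gene length and sequencing depth). Of the 38, 36 were matched to the table through their gene IDs and all 36 passed that filter, out of 13594 entries that passed it among 19287. Mx1 and Mx2 are not analysed here.

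All mice were male C57BL/6. The sham group (n = 5 libraries) and the IR group (ischemia-reperfusion, n = 5) have no gavage recorded. The IRLac (n = 5) and IRLacz (n = 4) groups were injured after 4 weeks of daily gavage with a Lactobacillus. IRLacz was matched by its abbreviation to L. casei Zhang, and IRLac was taken as L. acidophilus by elimination. Kidneys were collected 5 days after the injury. A vehicle gavage is not described, so the bacterium and the gavage procedure cannot be told apart. The labels do not state that each library is a separate mouse, so p-values measure the spread between these libraries, which may be technical.

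Type I interferons (interferon-alpha and interferon-beta) bind the receptor pair Ifnar1 and Ifnar2, and the kinases Jak1 and Tyk2 then phosphorylate Stat2. It joins Irf9 in a complex that binds the interferon-stimulated response element in front of antiviral genes. The induced proteins sense foreign nucleic acid, degrade or hold back viral RNA, block virus entry and release, and feed back on the signal. Many of the same genes also respond to interferon-gamma or interferon-lambda, and tubular cells as well as immune cells of the kidney can express them.

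Kidney markers were present in every library. Summed FPKM of 4 proximal tubule markers ran from 3129 to 3539 in sham and from 1027 to 1643 in IR. Correlations between libraries of a group, on log2(FPKM + 1), lay between 0.9604 and 0.9929. Sequencing depth is not given in the sources used here, and FPKM carries no count from which an interval could be made. In bulk tissue, fewer cells of a type and less RNA per cell cannot be told apart. All tests are limma's moderated test on log2(FPKM + 1), with p-values adjusted by Benjamini-Hochberg over all 13594 entries and a threshold of 0.05. Differences on that scale understate the change of low genes. The model gives each entry a single spread shared by all groups. Where the IR libraries spread more than the others, SEs, intervals and p-values of comparisons with IR can come out too small. Those of comparisons without IR can then come out too large.

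After injury nearly the whole list was higher than in sham. In IR against sham 35 of 36 members rose and none fell, where 57% of all entries tested were called higher. The members' median log2 difference was 1.94, against 0.29 over all entries. Every IR library lay above every sham library for 30 of 36 members, against 48.6% of all entries. Rsad2 was the exception to the call. The rise of all entries depends on the scale: with median-ratio scaling the median over all entries was 0.0111 and 32 members were called higher with a median of 1.66, and with quantile scaling it was -0.0609 with 31 called and a median of 1.496. The share of higher entries among all those called went from 75.4% to 50.6% and 44.4% under the same scalings.

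The IR libraries did not carry this response equally. IR replicate 5 was the lowest of the 5 IR libraries for 36 of 36 members, while it was lowest for 25.4% of all entries. IR replicate 2 was the second lowest for all 36, and the highest value came from replicate 4 for 22 members and from replicate 1 for 14. In replicate 5 the members stood at 10.2% to 75.7% of the mean of the other 4 IR libraries, with a median of 34.6%. It was at or below 0.5 times the next lowest IR library for 17 members, and for 0.765% of all entries. Replicate 5 was above every sham library for 30 members. All IR libraries, replicate 5 included, were above every sham library for 48.6% of all entries, so its own share is at least that.

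The median SD of log2(FPKM + 1) among the IR libraries was 0.693 over the members and 0.126 over all entries, and 98.8% of entries had an SD below the members' median. The corresponding members' medians were 0.154 in sham, 0.301 in IRLac and 0.504 in IRLacz, against 0.115, 0.162 and 0.175 over all entries. In IRLacz the spread also had an order, with replicate 1 lowest for 35 of 36 members and replicate 3 highest for 33. IRLacz replicate 1 was the lowest of its group for 57.7% of all entries.

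Among 34 tested markers of kidney and other cells, IR replicate 5 was the lowest IR library for 5, and for none of them was it at or below 0.5 times the next lowest. Its summed level of 7 macrophage and monocyte markers was 893 FPKM, within the 662 to 964 of the other 4 IR libraries, a sum made up mostly of Lyz2 at 753 FPKM. Within that list the monocyte marker Ly6c2 read 3.26 FPKM in replicate 5, against 6.31 to 16.3 in the other 4, and Adgre1 was also lowest there at 18.3 FPKM. Its 5 T and NK cell markers summed to 11.2 FPKM, within 7.22 to 20.2. The 4 fibroblast markers summed to 289 FPKM in it and to 261 to 305 in the other 4. Its proximal tubule sum of 1643 was above their 1027 to 1479, and its neutrophil sum of 10.6 was below their 11.6 to 16.3. Among markers of plasmacytoid dendritic cells, which make much type I interferon, Siglech, Ccr9 and Pacsin1 were under 1 FPKM in all 19 libraries. The rest of that list, Cox6a2 and Tcf4, went in opposite directions. Cox6a2 reached 1.98 FPKM in sham, and its mean went from 1.434 ± 0.536 FPKM in sham to 0.208 ± 0.118 in IR (SD, n = 5 each). Tcf4, which other cells also express, rose from a mean of 5.75 ± 0.522 FPKM in sham to 9.26 ± 0.763 in IR.

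**Figure D1:**
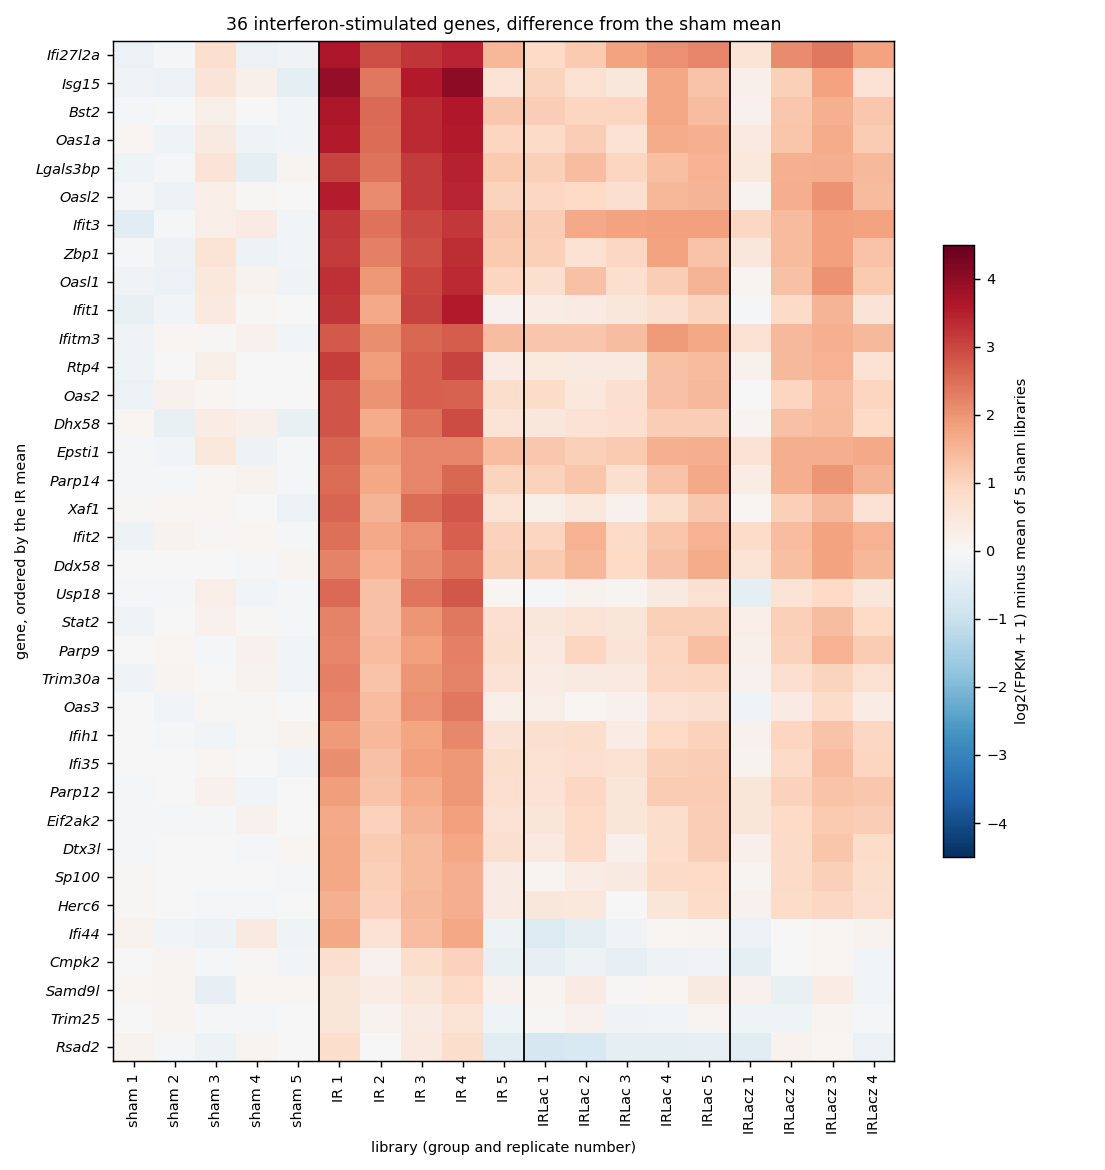
Heat map of the 36 members (rows, ordered by their IR mean) in 19 libraries (columns), as log2(FPKM + 1) minus the gene's sham mean. IR replicate 5 has the lowest value of the 5 IR libraries in all rows, and the IRLac and IRLacz columns lie mostly between sham and the strong IR libraries.

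The sensors of nucleic acid and their regulators comprise 7 members, and 7 of 7 rose in IR against sham. Ddx58 (gene ID 230073) encodes RIG-I, which senses viral RNA. Its values, in replicate order here and below, were 4.39, 4.61, 4.4, 4.22 and 5.02 FPKM in sham and 24.7, 15.3, 23.3, 28.8 and 10.5 in IR. In IRLac they were 11.6, 14.7, 9.25, 12.6 and 16.4, and in IRLacz 7.49, 13.02, 18.4 and 14.4. All IR libraries were above all sham libraries, and IR replicate 5 lay within the range of both gavage groups. The mean went from 4.53 ± 0.308 FPKM (SD, n = 5) to 20.5 ± 7.42 (SD, n = 5), a log2 difference of 1.88 with an SE of 0.23 (limma adjusted p = 9.44e-07).

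Trim25 (gene ID 217069), a ubiquitin ligase that acts on RIG-I, had the smallest difference of the sensors. Sham libraries held 18.6, 19.8, 17.5, 17.5 and 18.2 FPKM and IR libraries 27.2, 20.6, 24, 28.5 and 16.03. The IRLac values were 19.2, 20.9, 16.5, 16.8 and 19.9, and those of IRLacz were 15.8, 15.98, 20.1 and 17.7. IR replicate 5 lay below every sham library while the other 4 IR libraries lay above them. The log2 difference in IR was 0.30 (limma adjusted p = 0.0267), and it turned to -0.0159 with median-ratio scaling, so its direction depends on the scale.

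Dhx58 (gene ID 80861) encodes LGP2, a regulator of the RNA sensors. It read 1.36, 0.76, 1.8, 1.59 and 0.76 FPKM in sham and 14.6, 5.99, 11.1, 16.1 and 2.35 in IR. Gavaged libraries read 2.14, 2.5, 2.75, 3.75 and 3.77 in IRLac and 1.42, 4.46, 4.87 and 3.08 in IRLacz. The IR libraries again lay above all sham libraries, with replicate 5 nearest to them and inside the range of both gavage groups. IR exceeded sham by a log2 difference of 2.10 (limma adjusted p = 2.93e-05).

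Among the other sensors, mean FPKM went from 2.64 ± 0.293 in sham to 10.7 ± 4.02 in IR (SD, n = 5 each) for Ifih1, the RNA sensor MDA5. Zbp1, which binds left-handed nucleic acid, went from 2.102 ± 0.888 to 19.1 ± 9.45. The means of Trim30a, a TRIM-family protein, were 1.97 ± 0.281 and 9.36 ± 4.27, and those of Xaf1, a partner of an apoptosis inhibitor, 2.23 ± 0.32 and 13.9 ± 7.44. All 4 passed the test.

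The signal carrier, the ISG15 system and the PARP proteins comprise 8 members, and 8 of 8 rose after injury. Isg15 (gene ID 100038882) encodes a ubiquitin-like protein that is attached to other proteins. Its sham libraries held 5.92, 5.53, 10.5, 8.19 and 4.85 FPKM and its IR libraries 119.9, 38.8, 89.9, 126 and 10.97. IRLac held 14.6, 11.4, 9.92, 25.03 and 17.7 and IRLacz 8.12, 15.3, 26.2 and 11.2. Of the 5 IR libraries, 4 stood above every other library, whereas replicate 5 only just exceeded the highest sham library. Against sham, the log2 difference in IR was 2.91 with an SE of 0.50 (limma adjusted p = 3.83e-05), and without IR replicate 5 it was 3.48.

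Usp18 (gene ID 24110) removes ISG15 from proteins and dampens signalling at the type I receptor. Sham values were 2.37, 2.35, 3.32, 2.18 and 2.27 FPKM, and IR values 19.4, 7.67, 17.5, 23.4 and 2.7. In IRLac the values were 2.3, 2.91, 2.79, 3.59 and 4.61, against 1.6, 4.29, 5.52 and 3.92 in IRLacz. Replicate 5 of IR fell inside the sham range, while the other 4 were above every sham and every gavaged library. The log2 difference from sham was 1.84 (limma adjusted p = 0.000271).

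Parp9 (gene ID 80285) works in a complex with the ubiquitin ligase Dtx3l. Its FPKM values were 5.67, 6.16, 5.37, 6.78 and 5.2 in sham and 30.1, 16.7, 23.3, 31.6 and 10.9 in IR. They were 8.28, 12.3, 9.1, 12.2 and 16.5 in IRLac and 7.03, 13.1, 18.9 and 14.2 in IRLacz. IR and sham did not overlap, and IRLacz replicate 3 exceeded IR replicates 2 and 5. Against sham, the log2 difference in IR was 1.69 (limma adjusted p = 1.09e-05). Parp9 and Dtx3l lie side by side and overlap in the RefSeq annotation, and the handling of strand is not given, so their values may share reads.

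Stat2, which carries the signal to the nucleus, went from a mean of 5.26 ± 0.581 to 21.5 ± 9.14 FPKM (SD, n = 5 each). Herc6, the ligase that attaches ISG15 in mice, went from 1.19 ± 0.0778 to 4.38 ± 1.701. The complex partner Dtx3l had means of 2.92 ± 0.191 and 9.31 ± 2.83. Of the ADP-ribosyltransferases, Parp12 went from 5.72 ± 0.553 to 19.03 ± 6.22 and Parp14 from 2.77 ± 0.282 to 15.4 ± 6.34. These 5 passed the test, and for each of them the lowest IR library was replicate 5.

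RNA-binding and RNA-degrading effectors make up 9 members, and 9 of 9 rose in IR. Ifit3 (gene ID 15959) and Ifit1 (gene ID 15957) belong to a family that binds foreign RNA and blocks its translation. Ifit3 read 10.8, 15.5, 19.9, 20.7 and 14.7 FPKM in sham and 151, 91.8, 132, 151 and 38.2 in IR. It read 35.8, 54.7, 58.7, 59.3 and 60.02 in IRLac and 31.1, 43.9, 59.4 and 57.6 in IRLacz. IR replicate 5 was below most gavaged libraries and above all sham libraries. IR exceeded sham by a log2 difference of 2.60 (limma adjusted p = 5.18e-07).

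For Ifit1 the sham libraries held 1.35, 1.69, 2.98, 2.03 and 1.89 FPKM and the IR libraries 26.5, 8.52, 23.2, 33.6 and 2.35. IRLac held 2.71, 2.82, 3.14, 3.84 and 4.93, and IRLacz 1.76, 4.31, 7.59 and 3.36. Replicate 5 of IR was inside the sham range and below every IRLac library. The log2 difference from sham was 2.34 with an SE of 0.46 (limma adjusted p = 0.000178).

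Oasl2 (gene ID 23962) is related to the 2'-5' oligoadenylate synthetases, which activate an RNA-degrading enzyme. Its values were 4.42, 3.64, 5.9, 4.79 and 4.58 FPKM in sham and 63.6, 23.8, 48.5, 59.9 and 10.3 in IR. IRLac libraries read 9.6, 9.43, 8.28, 14.7 and 15.1, and IRLacz libraries 5.24, 16.3, 21.96 and 14.1. All IR values exceeded all sham values, but replicate 5 lay within both gavage groups. IR exceeded sham by a log2 difference of 2.65 (limma adjusted p = 9.9e-06).

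Of the synthetases, Oas1a went from a mean of 3.11 ± 0.785 to 32.6 ± 17.5 FPKM (SD, n = 5 each) and Oas2 from 1.52 ± 0.296 to 11.7 ± 5.499. Oas3 was at 0.31 ± 0.0718 in sham and 3.67 ± 2.12 in IR, the lowest level of the list. Outside IR it reached 1 FPKM only in IRLac replicates 4 and 5 (1.05 and 1.17) and IRLacz replicate 3 (1.31). It therefore passed the filter only through IR. Oasl1, which restrains Irf7 production, went from 1.58 ± 0.575 to 16.2 ± 9.35. Ifit2 had means of 3.34 ± 0.459 and 17.6 ± 7.65, and Eif2ak2, the RNA-activated kinase PKR, 3.16 ± 0.327 and 10.1 ± 3.45. All 6 passed the test. Ifit1, Ifit3 and Oas1a have close paralogues, and so do Ifitm3, Trim30a and Ifi27l2a. How reads shared between copies were counted is not given, so the values of these genes are uncertain to that extent.

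**Figure D2:**
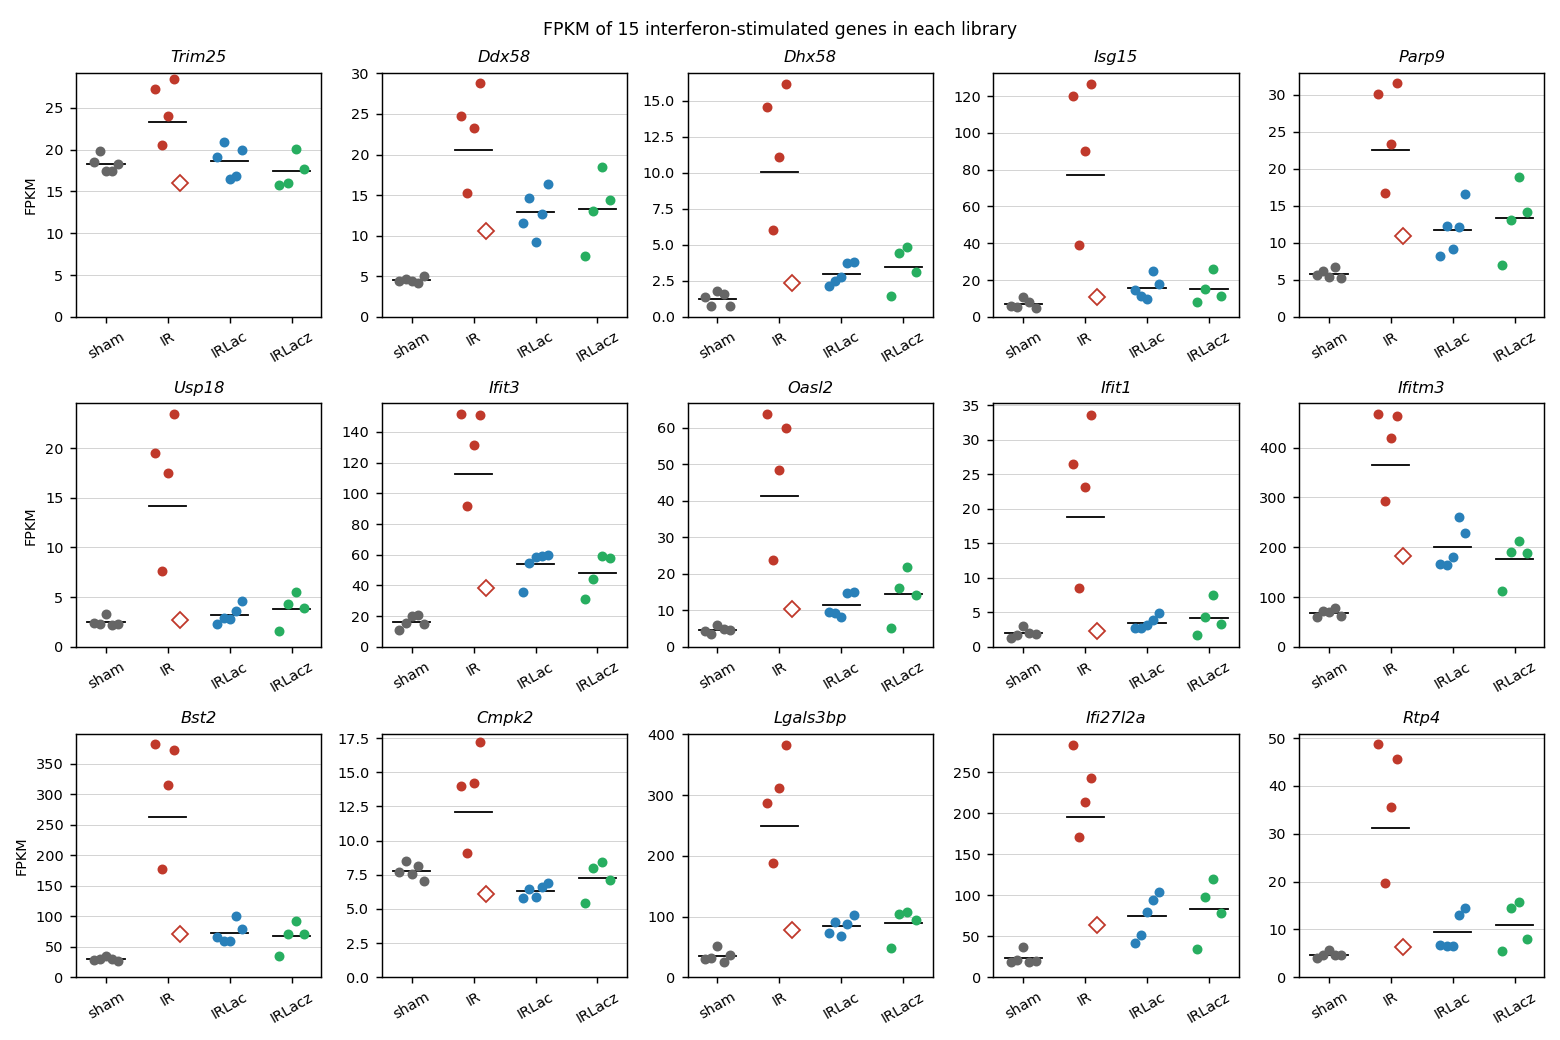
FPKM (linear axes from 0) of 15 members in each library, by group, with a bar at the group mean. The diamond among the IR points is replicate 5, which is the lowest IR point in every panel.

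Membrane and nucleotide effectors form 5 measured members, of which 4 rose in IR. Bst2 (gene ID 69550), or tetherin, holds budding viruses at the cell surface. Its sham libraries read 27.9, 29.1, 35.5, 29.02 and 27.1 FPKM and its IR libraries 381, 177, 315, 373 and 70.1. In IRLac they read 65.2, 58.5, 58.5, 101 and 79.4, and in IRLacz 34.2, 70.1, 92.2 and 70.5. IRLacz replicate 1 was inside the sham range, and all other injured libraries were above it. Against sham, the log2 difference in IR was 2.88 with an SE of 0.36 (limma adjusted p = 1.13e-06).

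Ifitm3 (gene ID 66141), which blocks virus entry at endosomes, was the most abundant member. FPKM values were 60.7, 72.2, 70.8, 78 and 62.6 in sham and 468, 293, 419.9, 463 and 183 in IR. Those of IRLac were 166, 165, 180.0, 261 and 229.7, and those of IRLacz 112, 190.3, 212 and 188. Every injured library exceeded every sham library. The log2 difference between IR and sham was 2.31 (limma adjusted p = 6.35e-08).

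Cmpk2 and Rsad2, which lie next to each other, stood closer to sham than most members. Cmpk2 (gene ID 22169), a mitochondrial nucleotide kinase, read 7.73, 8.52, 7.56, 8.17 and 7.06 FPKM in sham and 13.96, 9.07, 14.2, 17.2 and 6.06 in IR. It read 5.82, 6.46, 5.89, 6.57 and 6.92 in IRLac and 5.45, 8, 8.46 and 7.11 in IRLacz. IR replicate 5 and all 5 IRLac libraries were below every sham library. The log2 difference was 0.50 in IR against sham (limma adjusted p = 0.0196) and -0.26 in IRLac against sham (limma adjusted p = 0.197). The call in IR was lost with median-ratio scaling (0.197, limma adjusted p = 0.327) and with quantile scaling (0.116, limma adjusted p = 0.574), and in 3 of 19 fits that left out 1 library.

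Rsad2 (gene ID 58185) encodes viperin, an enzyme that makes an antiviral nucleotide. Sham libraries held 11.02, 9.38, 8.16, 10.7 and 9.65 FPKM and IR libraries 17.4, 9.61, 13.5, 17.8 and 6.67. IRLac held 5.37, 5.73, 7.15, 7.1 and 7.29 and IRLacz 6.65, 10.9, 10.5 and 7.86. IR replicates 2 and 5 were not above the sham libraries, and all IRLac libraries were below them. The IR against sham difference was 0.30 (limma adjusted p = 0.169), and without IR replicate 5 it was 0.50 (limma adjusted p = 0.00989). Its direction in IR depends on the scale, with -0.0586 under quantile scaling. Samd9l, a restriction factor of poxviruses, went from 22.1 ± 2.996 to 31.7 ± 5.88 FPKM (SD, n = 5 each) and was called at 0.49 (limma adjusted p = 0.00327), but not with median-ratio scaling (0.17, limma adjusted p = 0.288) or quantile scaling (0.259, limma adjusted p = 0.111).

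The other induced genes comprise 7 members, and 7 of 7 rose in IR. Lgals3bp (gene ID 19039), a secreted glycoprotein that binds galectin-3, read 29.9, 32.4, 51.1, 24.9 and 37.02 FPKM in sham and 287, 189, 312, 383 and 78.3 in IR. It read 73.2, 91.7, 67.8, 87.7 and 102 in IRLac and 47.8, 105, 107 and 94.4 in IRLacz. IR replicate 5 was above all sham libraries and within both gavage groups. The log2 difference from sham was 2.65 (limma adjusted p = 1.11e-06).

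Ifi27l2a (gene ID 76933), a small membrane protein induced by interferon, held 18.3, 21.1, 37.05, 17.99 and 19.8 FPKM in sham and 284, 172, 214, 243 and 63.6 in IR. Its IRLac libraries held 41.8, 51.05, 79.6, 94.4 and 104, and its IRLacz libraries 34.2, 98.2, 119 and 78.7. Sham replicate 3 stood above the other sham libraries, and IRLacz replicate 1 was below it. The log2 difference between IR and sham was 2.93 (limma adjusted p = 1.89e-06).

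Rtp4 (gene ID 67775), a chaperone of membrane receptors, was at 4, 4.56, 5.78, 4.68 and 4.57 FPKM in sham and 48.7, 19.7, 35.5, 45.7 and 6.36 in IR. In IRLac it was at 6.72, 6.53, 6.61, 13.04 and 14.4, and in IRLacz at 5.45, 14.6, 15.6 and 7.89. IR replicate 5 was just above sham and below every IRLac library. Against sham, the log2 difference in IR was 2.22 (limma adjusted p = 9.25e-05).

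The remaining 4 genes of that group were called as well. Mean FPKM went from 4.93 ± 1.18 to 12.7 ± 6.49 (SD, n = 5 each) for Ifi44, whose call was lost with quantile scaling (0.625, limma adjusted p = 0.0583), and from 11.7 ± 0.633 to 39.1 ± 13.2 for Ifi35, both interferon-induced proteins. Sp100, a nuclear body protein, went from 7.302 ± 0.203 to 19.8 ± 6.81, and Epsti1 from 1.83 ± 0.614 to 10.9 ± 3.58.

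Some of the members held the same motif near their start. The RefSeq promoter windows of build GRCm38.p6, from 250 bases before to 50 after each start, were searched on both strands for the core of the interferon-stimulated response element, which is GAAA, any 2 bases and GAAA again. It occurred in 13 of 28 members with a window (46.4%), against 3.99% of 27025 genes with windows of that length. Of the 13, 9 had a match before the start and 4 only after it. Segments of 5 member windows are shown, on the strand of the gene, because they hold 2 or more copies before the start. Capitals mark each match, and a copy on the opposite strand reads TTTC, 2 bases and TTTC. A match is a description of letters and does not show that a factor binds there.
Isg15 (chr4:156200855-156200916, minus strand): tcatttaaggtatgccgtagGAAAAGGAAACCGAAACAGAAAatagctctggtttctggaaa
Oas1a (chr5:120907526-120907565, minus strand): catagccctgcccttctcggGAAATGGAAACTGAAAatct
Bst2 (chr8:71537567-71537622, minus strand): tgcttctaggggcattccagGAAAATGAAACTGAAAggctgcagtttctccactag
Ifit3 (chr19:34583353-34583436, plus strand): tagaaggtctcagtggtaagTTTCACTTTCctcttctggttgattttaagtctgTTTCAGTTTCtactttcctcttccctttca
Ifit1 (chr19:34640765-34640833, plus strand): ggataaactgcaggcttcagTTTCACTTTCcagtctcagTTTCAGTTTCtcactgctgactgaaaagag
All 5 segments lie before the start of their gene, outside exons and genes of the GENCODE annotation of the same build. The Isg15 segment holds 3 overlapping copies and the other 4 segments hold 2 copies each. These 5 genes had log2 differences in IR against sham of 2.91 (Isg15), 2.79 (Oas1a), 2.88 (Bst2), 2.60 (Ifit3) and 2.34 (Ifit1). Rsad2 also had a match before its start, and its difference was 0.303 (limma adjusted p = 0.169). Oasl2 and Lgals3bp had no match, and their means went from 4.67 to 41.2 FPKM and from 35.05 to 249.8 FPKM. Whether a match goes with a larger rise was not tested.

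Neighbouring members were Rsad2 with Cmpk2 on chromosome 12, Ifit2 with Ifit3 on chromosome 19, Oas2 with Oas3 and Oasl1 with Oasl2 on chromosome 5, and Parp14, Dtx3l and Parp9 on chromosome 16. Members that lie together are not independent.

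The gavage comparisons ask whether Lactobacillus given before the injury went with another level of these genes on day 5. In IRLac all 36 members had a lower mean than in IR, but none was called. The adjusted p-values (limma) ran from 0.249 to 0.858, where 0.00736% of all entries were called lower. At an unadjusted p under 0.05, 36 of 36 members were lower, against 3.54% of all entries. The median log2 difference was -0.95, against 0.0024 over all entries. For Isg15 the mean was 15.7 ± 5.997 FPKM (SD, n = 5) in IRLac and 77.2 ± 50.6 (SD, n = 5) in IR, a log2 difference of -1.87 with a 95% interval from -2.91 to -0.83 (limma adjusted p = 0.287).

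This comparison turned on a single IR library. Without IR replicate 5, singled out after its values were seen, 30 of 36 members were called lower in IRLac, against 0.809% of all entries, with a median log2 difference of -1.25. The 4 remaining IR libraries lay above all IRLac libraries for 32 members, against 2.1% of all entries. With all libraries, IR replicate 5 was within the IRLac range for 33 members (82.9% of all entries) and below it for Trim25, Ifit1 and Rtp4. By role, the calls without it were 5 of 7 sensors, 6 of 8 of the ISG15 and PARP group, 9 of 9 RNA effectors, 4 of 5 membrane effectors and 6 of 7 others. The 6 that missed the threshold were Ddx58, Trim25, Dtx3l, Parp14, Samd9l and Epsti1.

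In IRLacz against IR 22 of 36 members fell and none rose, where 7.92% of all entries were called lower. These calls use a spread shared with sham and IRLac, where the members varied less. With only IR and IRLacz in the model none was called, and the reason was not tested. The members' median log2 difference was -1.02, against -0.0041 over all entries. The fall was largest for Isg15, at -1.96 with an SE of 0.53 (limma adjusted p = 0.0231). Bst2 fell from a mean of 263 ± 136 FPKM (SD, n = 5) in IR to 66.7 ± 24.01 (SD, n = 4), a log2 difference of -1.81 (limma adjusted p = 0.00874). For Ifitm3 it was -1.01 (limma adjusted p = 0.014). For Oas3, which passed the filter only through IR, it was -1.32 (limma adjusted p = 0.0128).

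By role the falls covered 5 of 7 sensors (Ifih1, Dhx58, Zbp1, Trim30a and Xaf1), 3 of 8 of the ISG15 and PARP group (Stat2, Isg15 and Usp18) and 7 of 9 RNA effectors (Ifit1, Ifit3, Oas1a, Oas2, Oas3, Oasl1 and Oasl2). They also covered 4 of 5 membrane effectors (Bst2, Ifitm3, Cmpk2 and Samd9l) and 3 of 7 others (Ifi44, Ifi35 and Lgals3bp). Rtp4 missed the threshold at -1.26 (limma adjusted p = 0.062), as did Ifi27l2a at -1.21 (limma adjusted p = 0.0552). No member had IR and IRLacz libraries free of overlap, against 6.85% of all entries that were lower in every IRLacz library, and IR replicate 5 lay within the IRLacz range for 36 of 36 (67.9% of all entries).

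The number called in IRLacz against IR depended on several libraries. It was 36 without IR replicate 5, where 9.27% of all entries were called lower, and the 4 other IR libraries then lay above all IRLacz libraries for 25 members, against 10.9% of entries. It dropped to 3 without IR replicate 3, to 6 without replicate 1, to 8 without replicate 4 and to 15 without replicate 2. Without IRLacz replicates 1, 2 and 4 in turn it was 5, 7 and 13, and without replicate 3 it was 25. Bst2 and Ifitm3 were called in all 19 fits that left out 1 library. So was Oas3, but it passed the filter only through its IR values, and these fits did not repeat the filter. With only the 2 groups in the model no member was called, and without the filter on low values 12 were. In the fits that left out 1 library, the members' median log2 difference ran from -1.26 (without IR replicate 5) to -0.821 (without IRLacz replicate 1). Except for the fit without IR replicate 5, the share of all entries called is not given for these settings. Fewer calls among all entries and a change of the members therefore cannot be told apart.

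**Figure D3:**
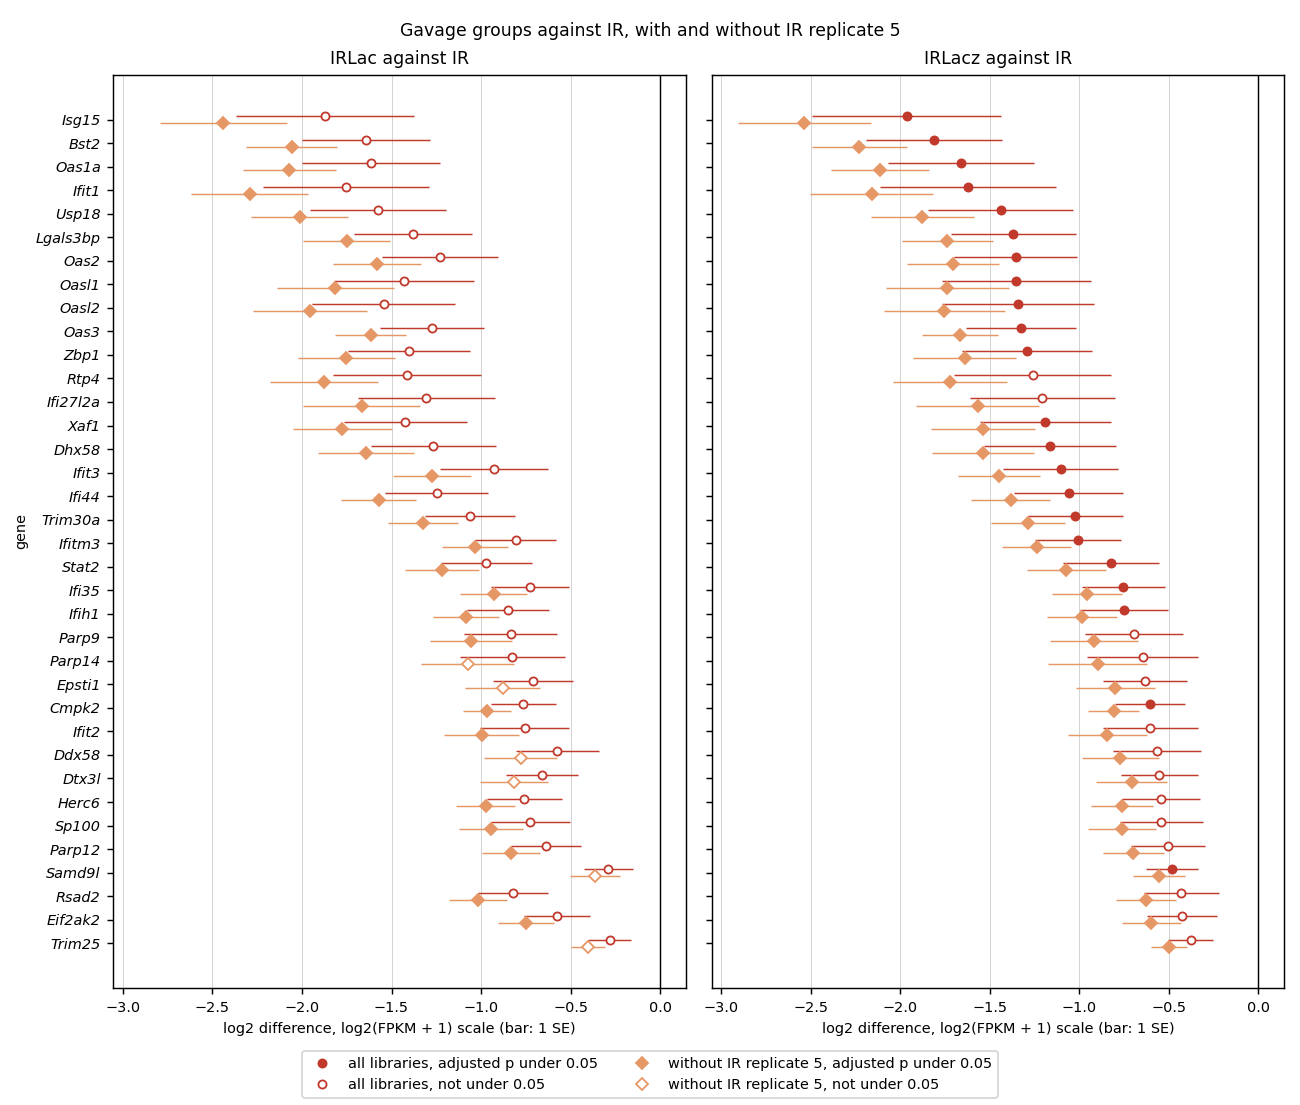
Log2 differences from IR (bar: 1 SE) for the 36 members in IRLac (left) and IRLacz (right), with all libraries (circles) and without IR replicate 5 (diamonds); filled symbols passed the test. All points lie left of 0. Leaving out the library moves each one further left, as it must, because it was the lowest IR library for all 36 members.

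IRLacz and IRLac could not be told apart by these genes. In IRLacz against IRLac no member was called (limma), none had an unadjusted p under 0.05, and 0.00736% of all entries were called higher, 0.0147% lower and 16% had an unadjusted p under 0.05 in either direction. The shared spread takes in the IR libraries, where the members' median SD was 0.693, against 0.301 in IRLac and 0.504 in IRLacz. The members' p-values and intervals here can therefore come out too large, which limits the comparison with the 16%. With only these 2 groups in the model no member was called either. The members' log2 differences ran from -0.20 to 0.39, with a median of 0.106. Their 95% intervals reached from -1.20 to 1.16 at the widest, so the lack of a call does not show that single genes were equal. For Isg15 the interval was -1.20 to 1.01 around -0.10. The comparisons of each gavage group with IR share the IR libraries, so their common direction is not independent.

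On the FPKM scale as deposited, both gavage groups were called above sham for most members. In IRLac against sham 25 members were higher and 1, Rsad2, was lower, where 58% of all entries were called higher and 16.8% lower. The fall of Rsad2 was -0.52 on the log2 scale (limma adjusted p = 0.0237). In IRLacz against sham 25 members were higher and none lower, where 56.9% of all entries were called higher. The members' median log2 differences were 0.84 and 0.93, against 0.299 and 0.292 over all entries. These counts depend on the scale. With median-ratio scaling 15 rose and 3 fell in IRLac, where 4580 of 13594 entries were called higher and 4595 lower. In IRLacz 17 rose and 1 fell, against 4255 and 4218 entries. With quantile scaling the counts were 11 and 2 in IRLac, against 4141 and 4822 entries. They were 12 and 2 in IRLacz, against 3518 and 4215 entries. The members' medians in IRLac and IRLacz were then 0.545 and 0.652 with median-ratio scaling, and 0.41 and 0.531 with quantile scaling. The called rise of Herc6 in IRLac (0.467) became -0.0652 with quantile scaling, and differences from sham that had not been called changed sign for Trim25 and Samd9l under both scalings in IRLac, for Samd9l under both in IRLacz and for Usp18 and Oas3 under quantile scaling in both gavage groups.

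Markers of other cell types also differed between the injured groups. Summed FPKM of the 7 macrophage and monocyte markers was 308 to 629 in IRLacz, below the 662 to 964 in IR without overlap, and 401 to 1069 in IRLac. In IRLacz against IR 4 of these 7 markers (Adgre1, Cd68, Ly6c2 and Lyz2) were called lower and none higher, and in IRLac none was called. Of all entries, 7.92% were called lower in IRLacz against IR but only 0.00736% in IRLac against IR. In IRLacz against IRLac none of the 7 was called. The 4 fibroblast markers summed to 123 to 209 in IRLacz, 183 to 308 in IRLac and 261 to 305 in IR. Of these 4, Col1a1 and Pdgfrb were called lower in IRLacz, while Pdgfra had means of 12.4 ± 1.31 FPKM in IR (SD, n = 5) and 14.515 ± 2.6 in IRLacz (SD, n = 4). Other lists lay higher: 1 of 3 thick limb and distal tubule markers (Slc12a3) and 1 of 2 collecting duct markers (Atp6v1b1) were called higher in IRLacz against IR. Among all 13594 entries, 733 were called higher in that comparison. The 3 tested neutrophil markers had a median log2 difference of 0.645 in IRLac and 0.682 in IRLacz against IR, with none called. IRLacz replicate 1, the lowest of its group for 35 members, also had the lowest macrophage sum (308) and the lowest fibroblast sum (123). T and NK cell markers summed to 3.91 to 15.5 in IRLacz, 3.93 to 11.7 in IRLac and 7.22 to 20.2 in IR, and all 3 B cell markers were under 1 FPKM in every library. The part of these cells in the members' differences was not tested.

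The genes that make and carry the interferon signal were counted as a separate list, of which 27 passed the filter. In IR against sham 26 of 27 rose on the FPKM scale as deposited, where 57% of all entries were called higher. The exception was Mavs, the adaptor of the RNA sensors, at 0.07 (limma adjusted p = 0.298). Ticam1 at 0.256, Tbk1 at 0.38 and Irf3 at 0.45 lay near the median of 0.29 over all entries. That median was 0.0111 with median-ratio scaling, so small rises such as these may depend on the scale. Ifnb1 and Ifng, the interferon genes analysed here, were hardly seen. Ifnb1 was listed at 0 in all libraries but IRLac replicate 4, at 0.1 FPKM, and Ifng ran from 0 to 0.3 FPKM. An exact 0 may be a failed estimate. Other interferon genes of the list are not analysed here.

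The 9 receptors and kinases moved little between injured groups. All 9 rose in IR against sham, among them Ifnar1, from 7.83 ± 0.33 to 15.6 ± 1.43 FPKM (SD, n = 5 each), and Ifnar2, from 19.9 ± 1.15 to 43.1 ± 3.78. None of the 9 was called in any comparison among injured groups. Their log2 differences ran from -0.143 to 0.0238 in IRLac against IR and from -0.258 to 0.0319 in IRLacz against IR, with 95% intervals between -0.63 and 0.315. Ifnar1 in the 5 IR libraries read 17.6, 15.8, 15.6, 15.2 and 13.6 FPKM, and Ifnar2 47.3, 45.98, 38.9, 43.7 and 39.4. IR replicate 5 was the lowest for Ifnar1 by a small margin and not the lowest for Ifnar2.

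All 4 transcription factors of the list and all 3 feedback inhibitors had their lowest IR value in replicate 5. So did 16 of the 27 genes in all, against 25.4% of all entries. Some margins to the next lowest IR library were small: 30.16 against 30.36 FPKM for Socs3, and 46.65 against 47.36 for Irf3. They were 28.08 against 29.26 for Ptpn6, 27.27 against 29.37 for Irf1 and 4.27 against 4.85 for Socs1. Irf9, at 14.78 against 21.82, and Irf7 differed more. Only Irf7 was at or below 0.5 times the next lowest IR library there. Irf7, which amplifies interferon production, read 8.75, 8.37, 17.98, 9.18 and 11.01 FPKM in sham and 219, 77.6, 175, 228 and 13.8 in IR. It read 13.8, 17.4, 17.2, 23.1 and 26.1 in IRLac and 10.6, 24.4, 36.1 and 19.7 in IRLacz. IR replicate 5 lay within the sham range and below every IRLac library, and the other 4 IR libraries were above every other library. The log2 difference was 3.11 in IR against sham (limma adjusted p = 5.34e-05), -2.33 in IRLac against IR (limma adjusted p = 0.249) and -2.21 in IRLacz against IR (limma adjusted p = 0.0216).

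Irf9, the DNA-binding part of the complex with Stat2, read 40.5, 21.8, 34.1, 39.9 and 14.8 in IR and differed by -0.82 in IRLacz (limma adjusted p = 0.0592). Its means were 6.66 ± 0.512 FPKM in sham, 15.6 ± 3.68 in IRLac (SD, n = 5 each) and 16.7 ± 6.54 in IRLacz (SD, n = 4). IR replicate 5 was the lowest and replicate 2 the second lowest IR library.

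In IRLacz against IR 6 of the 27 genes fell and none rose, where 7.92% of all entries were called lower. Beside Irf7 these were Irf3, which starts interferon transcription, at -0.23 and the RNA-editing enzyme Adar at -0.56. The others were Trex1, which degrades cytosolic DNA, at -0.73, and the feedback inhibitors Socs1 at -0.86 and Ptpn6 at -0.33. Their limma adjusted p-values ran from 0.0156 for Socs1 to 0.0493 for Irf3. In IRLac against IR none of the 27 was called, and 7 were lower at an unadjusted p under 0.05, against 3.54% of all entries. Without IR replicate 5, Irf7, Irf9 and Adar were called lower in IRLac, against 0.809% of all entries.

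**Figure D4:**
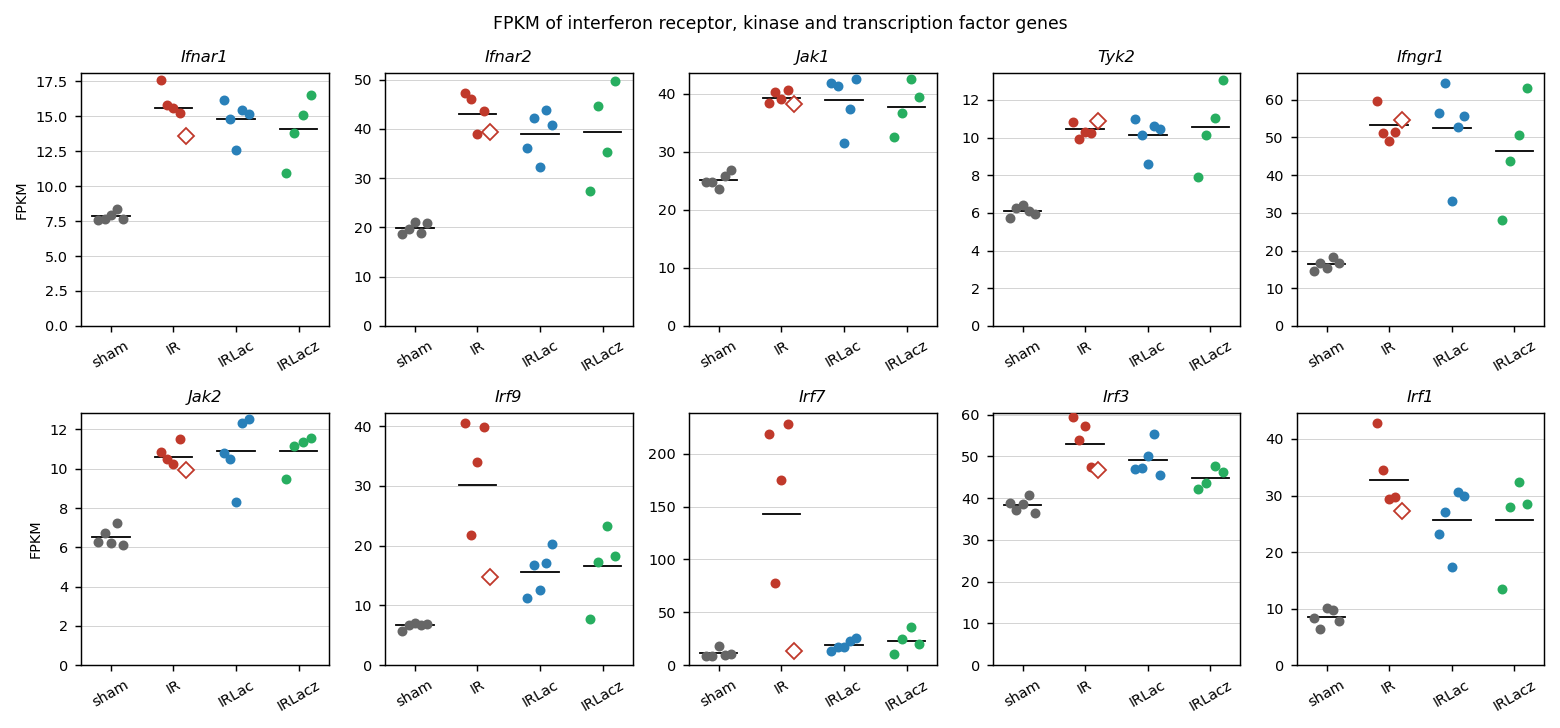
FPKM (linear axes from 0) of 10 genes of the interferon pathway in each library, by group, with a bar at the group mean and IR replicate 5 as a diamond. Irf7 and Irf9 show the low IR replicate 5, while the 5 IR points of the receptor genes Ifnar1 and Ifnar2 lie close together.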

How the data were processed

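Kidney RNA from 19 libraries was measured by sequencing, and the authors deposited 1 table of FPKM values with a column per library, in which each value is scaled by gene length and sequencing depth. Extraction used Trizol with a Bioanalyzer check and libraries were standard Illumina ones, per the labels' protocols. HISAT, StringTie 1.0.4 and build mm9 are named without a role, per the submitters' processing notes. The annotation, like strand and depth, is not given in the sources used here. FPKM sums were 545590 to 584798 and do not measure depth. Whole reads could not be recovered from low values: 30.1% of 867 values came within 0.1 of a multiple of the lowest, where 20% would by spacing alone. An exact 0 may be a failed estimate, since 27 entries had one beside a median above 5 FPKM.

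Of 19287 entries, 18238 were named by gene ID through a RefSeq table of assembly GRCm38, used for names and neighbours only. Promoter sequences are RefSeq's on GRCm38.p6 and were not set against coordinates of the deposited values. Tests used limma 3.58.1 (R 4.3.3) on log2(FPKM + 1), with a mean-variance trend, 1 model for the 19 libraries and 15 residual degrees of freedom. The filter, 1 FPKM or more in 4 or more libraries, kept 13594 entries. In all 6 comparisons were made, each adjusted by Benjamini-Hochberg at 0.05. The script was first tested on simulated data. Sample titles gave the groups and replicate numbers.

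The members, the pathway and marker lists and the tests were chosen with earlier results of these data known. Values in every library are given for the 2 members of each role group with the highest mean log2(FPKM + 1) and for the 1 further member with the largest SD among IR libraries, and for members called against the majority direction. Alternatives were other pseudocounts (0.1 and 5), filters, scalings, TPM rescaling, library weights, only the groups compared, a replicate block and leaving out each library. Figures were drawn with matplotlib 3.10.9. Tables of transcription factor families were not used here. A gene of the pathway list and a gene of the marker lists are not reported here.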

Additional observations from a re-analysis of the deposited data

Results flagged for a closer look

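Among 144 sets of member values by group, 9 held a library whose gap to its nearest neighbour was large for the range of its group (Dixon's criterion at the 95% level), and chance gives about 1 in 20. Sham replicate 3 accounted for 6 of them. It was the highest sham library for Zbp1 at 3.67 FPKM, for Usp18 at 3.32, for Bst2 at 35.51, for Ifi27l2a at 37.05 and for Epsti1 at 2.91, and it was the lowest for Samd9l at 16.79. Sham replicate 3 was the highest sham library for 17 of 36 members and for 24.2% of all entries. Xaf1 was low in sham replicate 5 at 1.67 FPKM. Ifit3 was low in IRLac replicate 1 at 35.75 FPKM. Epsti1 was low in IRLacz replicate 1 at 3.39 FPKM. IR replicate 5 met this criterion for no member, because the other 4 IR libraries were themselves spread out.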

How the results depend on the processing

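The number of members called in IR against sham was 31 to 36 over all alternatives, and 33 to 36 when each library was left out in turn. For Trim25 the difference became -0.0159 with median-ratio scaling, and this was the 1 reversal of a called value among the 15 named members in IR against sham and the gavage groups against IR. Of the other values in these comparisons, called or not in the main fit, 1175 kept their side of the threshold, 96 lost a call and 30 gained it. Of the 96 lost, 85 were in IRLacz against IR and 11 in IR against sham. In IRLac against IR leaving out a library gave 0 to 30 calls, with 30 without IR replicate 5, and all other alternatives gave 0. In IRLacz against IR, with 22 calls, the count was 12 without the filter and 0 with only the 2 groups compared, and leaving out a library gave 3 to 36; the cause was not tested. In IRLac against sham 26 calls became 13 with quantile scaling, and in IRLacz against sham 25 became 14. Over all members and 6 comparisons (216 differences), 5 changed sign with median-ratio scaling and 9 with quantile scaling, and 1 in each case had been called (Trim25 in IR, and Herc6 in IRLac at -0.0652, both against sham). Leaving out a library gave 21 to 29 and 19 to 28. IRLacz against IRLac gave 0 throughout.

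With the replicate block, which was possible because groups share replicate numbers, the counts were 35, 0, 20 and 0 for IR against sham, IRLac against IR, IRLacz against IR and IRLacz against IRLac, and 25 and 22 for IRLac and IRLacz against sham. The numbers do not pair the libraries: 6 of 27 same-numbered pairs had a correlation of deviations over 0.1 (range -0.394 to 0.230), and 3 libraries correlated best with their own number. Depth is unknown, so the precision of low members such as Oas3 cannot be stated.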

Other observations

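Outside the list, 23 entries with a mean of at least 5 FPKM in IR also had IR replicate 5 at or below 0.5 times the lowest other IR library. They were looked for after its values were seen. Over all 13594 entries, members included and without that minimum, replicate 5 met this cut for 104. Replicates 1, 2, 3 and 4 met it for 81, 64, 102 and 68, so the number of entries was not particular to replicate 5. Ms4a4c read 0.83 FPKM in replicate 5 and 5.91 to 12.02 in the other 4 IR libraries. The apolipoprotein L genes Apol9a and Apol9b read 0.54 and 1.28 FPKM, against at least 3.07 and 4.19 in the others. The interferon-induced Ifi27 read 90.04 FPKM against 219 to 421. The DNA-sensor family genes Ifi204, Ifi211 and Ifi213 read 5.11, 5.43 and 1.56 FPKM, against at least 11.01, 12.7 and 3.58. Also in the set were Irf7, Oas1g, Ifit3b, Gbp6, Slfn1, Phf11d, H2-Q9, the macrophage lectin Siglec1 and the chemokine Ccl7. H3c15, Mtmr4, Igfbp2 and Rxrb were there too, with 3 loci that carry no gene name. At 1 of these loci replicate 5 and the lowest other IR library both read 0 FPKM, so replicate 5 was not below it.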
